A study of Rattus norvegicus with 6 samples.

Results

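The nuclear genes of respiratory complexes II to V and of cytochrome c were followed in heart tissue of rats given doxorubicin. Members were taken by symbol from the deposited count table, after the rows of a symbol were summed: Sdha to Sdhd, every symbol beginning with Uqcr, Cox4 to Cox8 or Atp5, and Cyc1 and Cycs. This gave 48 of 17487 symbols, of which 41 passed the filter on low counts and were tested. The animals were 6 adult male Wistar rats, with 1 library each. Doxorubicin is an anthracycline used against cancer and known for its toxicity to the heart. The treated group (n = 3) had been given its hydrochloride at 3.75 mg/kg into the tail vein once a week over 4 weeks, and the control group (n = 3) had received 0.9% saline on that schedule. The part of the heart that was sampled and the interval after the last dose are not given in the labels.

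Complexes II to IV pass electrons from succinate and ubiquinol to oxygen, and cytochrome c carries them between complexes III and IV. Complexes III and IV pump protons as they do so, and complex V, the ATP synthase, uses the proton gradient to make ATP. Heart muscle depends on this chain for most of its ATP, and it carries muscle forms of several complex IV subunits beside the forms found in most tissues. Complex II is encoded wholly in the nucleus, while complexes III, IV and V also hold subunits encoded in mitochondrial DNA, for which the table had 0 of 13 symbols.

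Promoters are shown for 6 members picked from the results below. Uqcrc1 and Uqcrq had the smallest p-values, and Atp5mc1 and Atp5mc2 are the c-subunit genes whose shares of counts are compared below. Atp5if1 was 1 of 2 members above control, and Cox8b is a muscle form. Each promoter is the 250 bases before the annotated start, 5′ to 3′, from RefSeq on GRCr8, which is not the build used for counting. Capitals mark matches on either strand to GCGCNTGCG (a form of the NRF1 motif), CCGGAAG (an ETS core), AAGATGG (a YY1 core), TCAAGGTCA (an ERR motif) or TATAAA, the core of the box named after it.
Uqcrc1 (GRCr8 chr8:118467973-118468222, plus strand): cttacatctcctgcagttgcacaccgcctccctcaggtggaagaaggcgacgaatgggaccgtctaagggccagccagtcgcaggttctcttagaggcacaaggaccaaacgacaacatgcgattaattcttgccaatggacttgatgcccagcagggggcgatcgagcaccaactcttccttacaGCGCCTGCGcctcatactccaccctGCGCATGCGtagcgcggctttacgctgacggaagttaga
Uqcrq (GRCr8 chr10:38089979-38090228, minus strand): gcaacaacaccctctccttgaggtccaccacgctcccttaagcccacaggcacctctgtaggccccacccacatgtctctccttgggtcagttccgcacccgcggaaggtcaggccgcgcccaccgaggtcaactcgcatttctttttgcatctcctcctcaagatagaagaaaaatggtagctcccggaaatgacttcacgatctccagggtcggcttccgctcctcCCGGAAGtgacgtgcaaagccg
Atp5mc1 (GRCr8 chr10:81523346-81523595, minus strand): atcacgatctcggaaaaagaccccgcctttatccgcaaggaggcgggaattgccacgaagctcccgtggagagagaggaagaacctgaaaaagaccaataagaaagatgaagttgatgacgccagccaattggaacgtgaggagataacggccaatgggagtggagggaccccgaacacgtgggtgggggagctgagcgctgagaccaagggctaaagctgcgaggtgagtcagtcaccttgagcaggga
Atp5mc2 (GRCr8 chr7:135678219-135678468, minus strand): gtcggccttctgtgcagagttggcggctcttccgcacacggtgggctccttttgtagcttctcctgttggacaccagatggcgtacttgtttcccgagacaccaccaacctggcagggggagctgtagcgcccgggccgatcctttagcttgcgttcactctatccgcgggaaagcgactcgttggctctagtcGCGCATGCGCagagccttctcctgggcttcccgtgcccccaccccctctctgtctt
Atp5if1 (GRCr8 chr5:150026678-150026927, minus strand): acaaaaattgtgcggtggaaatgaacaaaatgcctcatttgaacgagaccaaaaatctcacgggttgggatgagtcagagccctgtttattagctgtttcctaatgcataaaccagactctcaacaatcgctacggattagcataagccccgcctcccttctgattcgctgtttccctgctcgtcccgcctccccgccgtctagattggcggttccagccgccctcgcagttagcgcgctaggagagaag
Cox8b (GRCr8 chr1:205408274-205408523, minus strand): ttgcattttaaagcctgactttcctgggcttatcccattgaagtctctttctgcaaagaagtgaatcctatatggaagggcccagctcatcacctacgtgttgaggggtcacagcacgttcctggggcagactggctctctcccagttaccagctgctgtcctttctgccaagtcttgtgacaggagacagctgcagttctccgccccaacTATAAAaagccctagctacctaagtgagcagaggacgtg
Counted from the start site, the NRF1 matches of Uqcrc1 began at -64 and -39, those of Atp5mc2 overlapped from -56 and -55, the ETS match of Uqcrq began at -22 and the TATA match of Cox8b at -39. Uqcrc1 also had a YY1 match from -1, which runs past the bases shown. The windows of Atp5mc1 and Atp5if1 held none of the 5 sets of letters, so the c-subunit genes differed from each other in the NRF1 letters.

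Promoters of 35 of the 41 tested members were in the table, searched over 300 bases that include 50 after the start. The ETS letters were present in 14 of them (40%), against 9.22% of all 27457 promoters and 19% of the 7390 promoters of tested genes. The NRF1 letters were present in 12 (34.3%, against 6.34% and 14.3%) and the YY1 letters in 10 (28.6%, against 7.29% and 8.77%). At least 1 of these 3 was found in 26 members (74.3%, against 20.2% and 35.4%), and 0 members had an ETS match overlapping a YY1 match. The TATA letters were found in 4 members, Uqcr10, Cox8b, Atp5md and Atp5mg (11.4%, against 14.3% and 6.28%), and the ERR letters in 1, Sdhd (2.86%, against 0.412% and 0.217%). The median log2 fold change, doxorubicin against control, was -0.35 for the 26 members with a match to NRF1, ETS or YY1 and -0.46 for the 9 with none. Whether these letters bear on the levels was not tested.

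Library totals ran from 2219685 to 3508282 counts, and tested members had from 36 to 38964 counts per library. Control library 1 stood apart on the first principal component, at -43.3 against -4.83 to 26.6 for the others. It had the highest value of the 6 libraries for 38 of 41 members (92.7%) and for 26.7% of all tested genes. Its CPM exceeded the mean of the other control libraries by a median of 0.54 on the log2 scale over the members, 0.64 over 56 cytosolic ribosomal protein genes, 0.10 over 19 other mitochondrial protein genes and -0.01 over all tested genes. Erythroid transcripts summed to 6617 CPM in that library, against 2069 and 2581 in the other control and 711 to 2850 in the doxorubicin libraries, with 9 of 10 listed markers in the table, 7 of them tested and Alas2 listed at 0. Atrial markers summed to 739 CPM there, against 308 and 519 in the other control and 437 to 3503 in the doxorubicin libraries (6 of 6 in the table, 4 tested). Among them Myl7, the atrial myosin light chain, was at 164 CPM in control library 1 and at 2.06 to 6.42 CPM in the other 5 libraries, and Myl4, an atrial light chain too, at 68.4 and at 5.30 to 26 CPM. Nppa is the atrial natriuretic peptide gene and is also expressed in stressed ventricle. It was at 444, 376 and 161 CPM in control and at 3252, 277 and 902 CPM in doxorubicin libraries 1, 2 and 3. Its value in doxorubicin library 1 carried the highest sum. Dkk3 was at 120 to 131 CPM in control and 139 to 247 CPM in doxorubicin libraries. The part of these differences in the results was not tested, and the main results are therefore given with and without control library 1.

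Members made up a smaller part of the RNA in every doxorubicin heart than in any control heart. The 48 members together held 6.73%, 5.47% and 5.77% of all counts in control hearts 1, 2 and 3 (Wilson 95% intervals 6.70 to 6.75, 5.44 to 5.5 and 5.74 to 5.79). In doxorubicin hearts 1, 2 and 3 they held 5.02%, 5.39% and 4.79% (5.0 to 5.04, 5.37 to 5.42 and 4.76 to 4.81). This came to 5.99% ± 0.654 in control and 5.07% ± 0.305 in doxorubicin (mean ± SD, n = 3). The gap between the lowest control and the highest doxorubicin library was narrow. In bulk tissue, fewer cardiomyocytes and less RNA of these genes per cardiomyocyte cannot be told apart. The 11 cardiomyocyte markers in the table (of 12 listed, without Ttn) summed to 144416 to 151712 CPM in control and 119473 to 136580 CPM in doxorubicin libraries, with 9 of 11 below control. Their median log2 fold change was -0.21, or -0.11 with 8 of 11 below control without control library 1. Single markers were uneven, from -0.73 for Myh6, -0.68 for Ckm and -0.59 for Mb to 0.03 for Myoz2 and 0.17 for Pln. Macrophage markers (10 of 10 in the table) summed to 250 to 273 CPM in control and 327 to 543 CPM in doxorubicin, fibroblast markers (9 of 9) to 2481 to 3102 and 2461 to 4037 CPM, endothelial markers (8 of 8) to 1757 to 2123 and 1480 to 1816 CPM, and smooth muscle and pericyte markers (7 of 7) to 442 to 647 and 438 to 610 CPM. Skeletal muscle markers (10 of 10, 2 tested, Tnnt3 at 0) summed to 66.7 to 81.2 CPM in control and 80.9 to 121 CPM in doxorubicin, and brown adipocyte markers (7 of 7, 3 tested) to 131 to 157 and 90.3 to 111 CPM with Ucp1 and Elovl3 at 0. A single gene made up most of each of these sums. In TMM-scaled CPM, Casq1 was at 61.3 to 82.1 in control and 63.7 to 110 in doxorubicin, and Cidea at 123 to 148 and 77.8 to 92.8. The brown adipocyte marker Cfd went the other way, with a log2 fold change of 0.63 (SE 0.40). The part of these cell types in the result was not tested.

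Of the 41 tested members, 39 were below control in doxorubicin hearts, where 47.9% of all tested genes were, and the exceptions were Sdha and Atp5if1. The median log2 fold change was -0.35 over the members and 0.02 over all 9205 tested genes. Without control library 1 it was -0.15, with 36 of 41 below control, where 46.8% of all genes were. No single member passed: 0 of 41 had a Benjamini-Hochberg adjusted p under 0.05 in edgeR's quasi-likelihood test, where 0.0543% of all genes did, and the smallest adjusted p among members was 0.360. At an unadjusted p under 0.05 by the same edgeR test, 8 members were lower (19.5% of 41, against 4.11% of all genes) and 0 were higher (against 4.0%). DESeq2 gave 16 members at that level in either direction, where 5.54% of its genes were. It was run without the filter on low counts, so that share is not of the 9205 genes. Those 8 were Uqcrc1, Uqcrq, Cyc1, Atp5mc1, Atp5mf, Uqcrfs1, Sdhb and Atp5me. The count was 3 lower and 1 higher without control library 1 (all genes 2.65% and 2.96%), 20 in either direction without control library 2 (all genes 9.29%) and 4 without doxorubicin library 3 (6.42%). For 12 members every doxorubicin value lay below every control value (29.3% of 41, against 7.06% of all genes), and for 0 members above (against 6.39%). Without control library 1 the separated members were 13 lower (against 10.5% of all genes) and 1 higher (against 923 of the 9205 tested genes). The separated members numbered 31 without control library 2 and 22 without doxorubicin library 2, where 26.5% and 26.2% of all genes were separated, and 12 without control library 3, where 22.8% were.

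**Figure D1:**
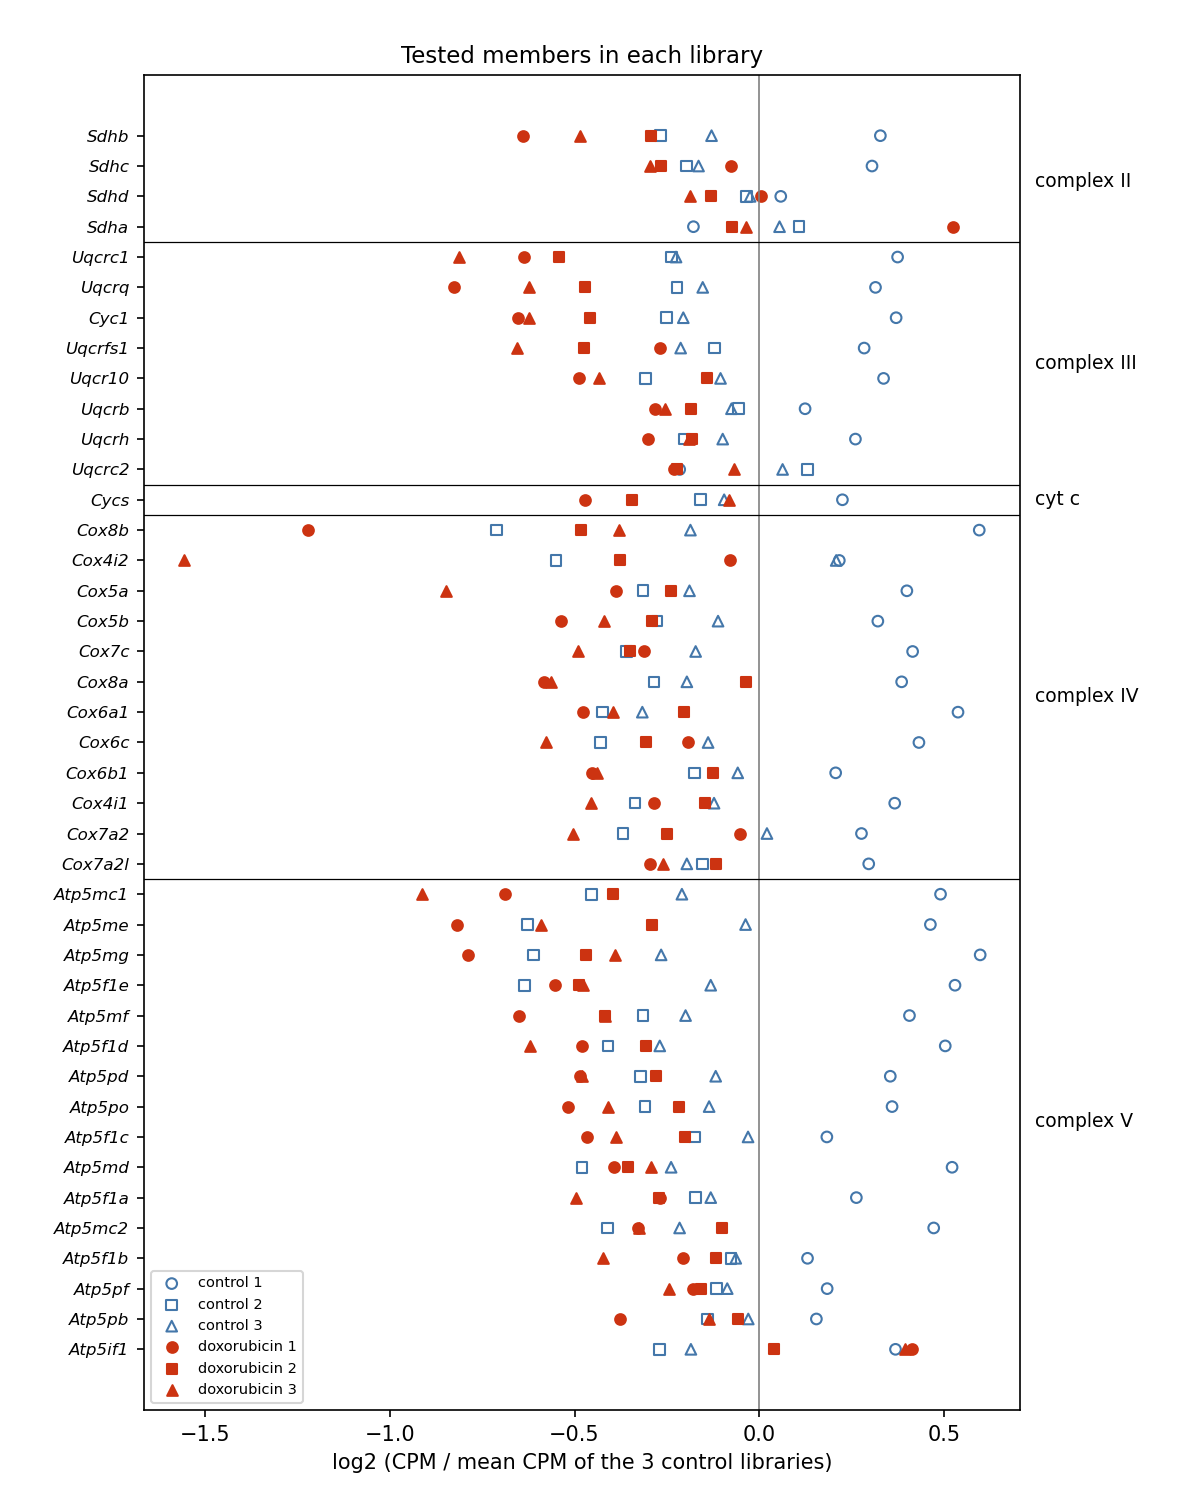
Each row is 1 of the 41 tested members and each point 1 library (n = 3 per group), on the log2 scale of CPM relative to the mean of the control libraries, with open blue symbols for control and filled red symbols for doxorubicin. The open circle, control library 1, is the highest point for 38 members, and the filled points lie left of all open points for 12 members.

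Complex III, which takes electrons from ubiquinol and hands them to cytochrome c, had the lowest median of the complexes, although the difference between complexes was not tested. The ranking did not hold with every library left out: the lowest medians were then -0.48 for complex III, -0.513 for complex IV and -0.511 for complex V. All 8 tested subunits of complex III were below control, with a median log2 fold change of -0.40 and of -0.27 without control library 1. Their mean log2 CPM per library was 10.42, 10.03 and 10.06 in control and 9.73, 9.85 and 9.73 in doxorubicin, so the groups did not overlap with or without control library 1. At an unadjusted edgeR p under 0.05, 4 of the 8 were lower (50%, against 4.11% of all genes), or 3 without control library 1 (against 2.65%). The groups of 5 of the 8 did not overlap, all lower (62.5%, against 7.06% of all genes).

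Uqcrc1 encodes a core protein of complex III on its matrix side. Its level was 3427, 2243 and 2262 CPM in control libraries 1, 2 and 3 and 1702, 1815 and 1506 CPM in doxorubicin libraries 1, 2 and 3. All 3 doxorubicin values were below all control values, and control library 1 was far above the other controls. The means were 2644 ± 678 CPM in control and 1674 ± 157 CPM in doxorubicin (± SD, n = 3). In edgeR's quasi-likelihood test this was -0.66 as a log2 fold change (SE 0.21, adjusted p 0.360). Without control library 1 the log2 fold change was -0.42 (SE 0.14, edgeR adjusted p 0.690). The other core protein gene, Uqcrc2, had 1422, 1807 and 1725 CPM in control and 1408, 1416 and 1574 CPM in doxorubicin, a log2 fold change of -0.17 (SE 0.18). It was 1 of 3 members that control library 1 did not lead, and with that library left out its groups did not overlap and its log2 fold change was -0.26.

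Cyc1, the cytochrome c1 subunit that passes electrons to cytochrome c, was measured at 2597, 1689 and 1743 CPM in control and at 1277, 1462 and 1306 CPM in doxorubicin libraries. The groups did not overlap, and the log2 fold change was -0.58 (SE 0.20, edgeR adjusted p 0.439), or -0.34 without control library 1. Uqcrfs1, the Rieske iron-sulfur protein that takes the first electron from ubiquinol, was at 2387, 1804 and 1692 CPM in control and at 1628, 1412 and 1244 CPM in doxorubicin. Here too every doxorubicin value was lower, by a small margin for doxorubicin library 1, with a log2 fold change of -0.46 (SE 0.20), or -0.29 without control library 1.

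The small accessory subunits were less even. Uqcrq, a ubiquinone-binding accessory subunit, had 1040, 717 and 752 CPM in control and 472, 603 and 543 CPM in doxorubicin libraries, with no overlap. Its log2 fold change was -0.63 (SE 0.20, edgeR adjusted p 0.360), and -0.44 (SE 0.15) without control library 1, the most negative value among the tested members in that fit together with the -0.44 (SE 0.40) of Cox4i2. Uqcrb was lower in each doxorubicin heart by a smaller amount, 651 ± 50.7 against 551 ± 19.5 CPM (SD, n = 3), and the values of Uqcrh and Uqcr10 overlapped, with log2 fold changes of -0.22 and -0.35, or -0.07 and -0.14 without control library 1. Uqcr11 stood on 2 rows of the table with 1 count in all and was not tested.

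Complex II, succinate dehydrogenase, which links the citric acid cycle to the chain, was split between its catalytic subunits. The median log2 fold change of its 4 members was -0.16, and -0.04 without control library 1. Sdhb, the iron-sulfur subunit, had 1562, 1034 and 1138 CPM in control and 799, 1017 and 890 CPM in doxorubicin libraries. The groups did not overlap, by the narrow margin between control library 2 and doxorubicin library 2, and the log2 fold change was -0.46 (SE 0.20, edgeR adjusted p 0.575), or -0.26 without control library 1. Sdha, the flavoprotein that oxidises succinate, had 1480, 1805 and 1740 CPM in control and 2407, 1592 and 1634 CPM in doxorubicin libraries. A single heart set its direction: doxorubicin library 1 was the highest of the 6, and the log2 fold change of 0.16 (SE 0.20) was -0.05 without that library. The genes of the membrane anchor overlapped between the groups, with a log2 fold change of -0.21 (SE 0.19) for Sdhc and of -0.10 (SE 0.17) for Sdhd, or -0.02 and -0.07 without control library 1.

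Cytochrome c itself, the small soluble carrier encoded by Cycs, was at 990, 758 and 793 CPM in control and at 611, 667 and 801 CPM in doxorubicin libraries. Doxorubicin library 3 lay above control libraries 2 and 3, so the groups overlapped. The log2 fold change was -0.29 (SE 0.19, edgeR adjusted p 0.730), and -0.16 without control library 1. Cycs has processed copies elsewhere in mammalian genomes, and how reads shared with them were counted is not given in the sources used here.

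Complex IV, cytochrome c oxidase, passes the electrons to oxygen, and all 12 of its tested members were below control, with a median log2 fold change of -0.36. Control library 1 was the highest of the 6 for all 12, without it the median was -0.12, and 11 of 12 stayed below control, the exception being Cox6a1. Mean log2 CPM per library was 9.44, 8.70 and 8.95 in control and 8.66, 8.83 and 8.50 in doxorubicin, so doxorubicin library 2 lay above control library 2. Members at an unadjusted edgeR p under 0.05 numbered 0 of 12, where 8.10% of all genes were at that level in either direction.

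Cox5b, a zinc-binding subunit, was the only one of the 12 whose groups did not overlap (8.33%, against 7.06% of all genes lower). It was at 1928, 1275 and 1429 CPM in control and at 1065, 1264 and 1153 CPM in doxorubicin libraries. The margin between control library 2 and doxorubicin library 2 was small. Its log2 fold change was -0.41 (SE 0.20, edgeR adjusted p 0.617), and -0.22 without control library 1. Cox5a, its partner subunit, had 900 CPM in doxorubicin library 3, below every other library, and 1239 and 1374 CPM in doxorubicin libraries 1 and 2, inside or below the control range of 1303 to 2138 CPM. Its log2 fold change was -0.47 (SE 0.23), or -0.21 without control library 1. Cox6c, Cox7c and Cox6b1 had log2 fold changes of -0.35, -0.38 and -0.33, with overlapping groups, and of -0.07, -0.11 and -0.21 without control library 1. Cox7a2l, which joins complexes III and IV into supercomplexes, had a log2 fold change of -0.22, or -0.04 without control library 1.

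Of the pairs of tissue isoforms in complex IV, 3 could be compared as the share of the counts of a pair, with the c-subunit genes of complex V as the fourth comparison. These are shares of counts and not of molecules, since the genes differ in length. For subunit 8, Cox8b is the form of heart and skeletal muscle and Cox8a the form of most other tissues. Cox8b was at 1245, 503 and 724 CPM in control and at 353, 590 and 634 CPM in doxorubicin libraries, a log2 fold change of -0.65 (SE 0.30, edgeR adjusted p 0.615). Control library 1 was highest and doxorubicin library 1 lowest, and the others overlapped, with a log2 fold change of -0.22 without control library 1. Cox8a had 355, 223 and 237 CPM in control and 181, 265 and 184 CPM in doxorubicin libraries, a log2 fold change of -0.37 (SE 0.22), or -0.13 without control library 1.

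The Cox8b share of the pair was 77.8%, 69.3% and 75.3% in control libraries (Wilson 95% intervals 76.5 to 79.1, 67.0 to 71.5 and 73.9 to 76.8) and 66.1%, 69.0% and 77.5% in doxorubicin libraries (63.8 to 68.3, 67.3 to 70.7 and 75.9 to 79.0). Doxorubicin library 1 lay below every control library, and doxorubicin library 3 within the control range. Doxorubicin library 2 was below control library 2 by a small margin only, with overlapping intervals. The means were 74.2% ± 4.39 and 70.9% ± 5.93 (SD, n = 3), a difference of -3.29 percentage points. It was -1.45 without control library 1, -5.72 without control library 2, -0.895 without doxorubicin library 1 and -6.60 without doxorubicin library 3. The 2-sided exact permutation p was 0.4, where 0.1 is the smallest that 3 against 3 libraries can give.

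Subunit 4 was almost wholly of the common form. Cox4i1 was at 4320, 2655 and 3078 CPM in control and at 2751, 3028 and 2442 CPM in doxorubicin libraries, a log2 fold change of -0.29 (SE 0.21), or -0.06 without control library 1. Cox4i2, a form best known from lung and from low oxygen, rested on 36 to 127 counts per library, and its log2 fold change was -0.56 (SE 0.34), or -0.44 without control library 1. Its share of the pair was 0.833%, 0.797% and 1.16% in control libraries (Wilson 95% intervals 0.682 to 1.02, 0.602 to 1.05 and 0.974 to 1.38) and 1.06%, 0.787% and 0.433% in doxorubicin libraries (0.867 to 1.30, 0.630 to 0.983 and 0.313 to 0.598). Doxorubicin library 3 was the lowest and the rest were mixed, with a 2-sided exact permutation p of 0.4. Cox6b2, the testis form of subunit 6B, had 0 to 5 counts per library beside 1601 to 2716 of Cox6b1, and the exact permutation p for its share was also 0.4.

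For 3 pairs no balance could be taken. Cox6a2, the muscle form of subunit 6A, stood on 2 rows and was listed at 0 in all 6 libraries, while Cox6a1 had 467 to 1058 counts per library and a log2 fold change of -0.35 (SE 0.24) that turned to 0.02 without control library 1. Cox7a1, the muscle form of subunit 7A, matched 0 rows, and Cox7a2 had a log2 fold change of -0.26 (SE 0.20), or -0.09 without control library 1. Cox7b was listed at 0 on its single row, and its isoform Cox7b2 matched 0 rows. Listing at 0 is a statement about this table: Cox6a2 and Cox7b are ordinarily expressed in heart. The pseudogene Cox6c-ps1 was listed at 0 too, and Cox8c, a testis form, had 1 count in all.

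**Figure D2:**
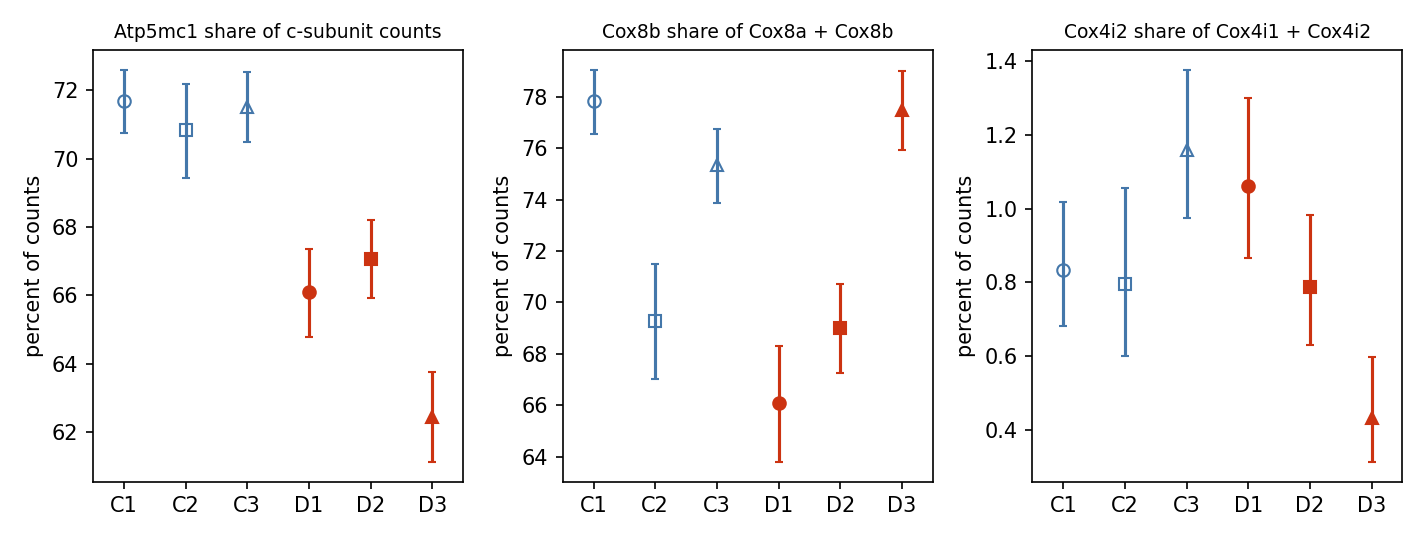
Shares of counts in percent for Atp5mc1 among the c-subunit genes, Cox8b among Cox8a and Cox8b, and Cox4i2 among Cox4i1 and Cox4i2, in control (C1 to C3, open blue) and doxorubicin (D1 to D3, filled red) libraries. Bars are Wilson 95% intervals, which cover counting error only, and the vertical axes do not start at 0. For Atp5mc1 the 3 control libraries lie between 70.8% and 71.7% and the doxorubicin libraries between 62.4% and 67.1%, while the other shares overlap between the groups.

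Complex V makes ATP, and 15 of its 16 tested members were below control, with a median log2 fold change of -0.36, or -0.15 with 13 of 16 below control without control library 1. Of the 16, 3 were lower at an unadjusted edgeR p under 0.05 (18.75%, against 4.11% of all genes). Without control library 1, 0 were lower at that level (against 2.65% of all genes) and 1, Atp5if1, was higher (against 2.96%). With all 6 libraries the groups of 5 did not overlap, all lower (31.25%, against 7.06% of all genes). Mean log2 CPM per library was 10.57, 9.85 and 10.05 in control and 9.77, 9.94 and 9.81 in doxorubicin, with doxorubicin library 2 above control library 2.

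In the F1 head, Atp5f1b, the catalytic beta subunit, was at 12659, 10970 and 11065 CPM in control and at 10031, 10657 and 8632 CPM in doxorubicin libraries. Atp5f1a, the alpha subunit, was at 10050, 7435 and 7649 CPM in control and at 6953, 6947 and 5944 CPM in doxorubicin libraries. For both, each doxorubicin value was below each control value, and the log2 fold change was -0.24 (SE 0.18) for the beta and -0.34 (SE 0.19) for the alpha subunit, or -0.17 and -0.18 without control library 1. Atp5f1c, the gamma subunit of the rotating stalk, did not overlap either, with 1856 ± 234 against 1459 ± 139 CPM (SD, n = 3). Values of the delta and epsilon subunit genes overlapped: Atp5f1d was at -0.46 (SE 0.23) and Atp5f1e at -0.51 (SE 0.25) as log2 fold changes, and at -0.12 and -0.14 without control library 1. The 4 genes of the peripheral stalk, which holds the head still, had log2 fold changes from -0.41 for Atp5pd to -0.18 for Atp5pb, or -0.19 and -0.10 without control library 1. Of these 4, only the groups of Atp5pf did not overlap, with a log2 fold change of -0.19, or -0.09 without control library 1.

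Small membrane subunits had a median log2 fold change of -0.52, and of -0.17 without control library 1, which exceeded the other controls by a median of 0.82 on the log2 scale for these 4 genes. Atp5mf, which encodes subunit f, had 768, 466 and 504 CPM in control and 369, 433 and 433 CPM in doxorubicin libraries, with no overlap and a log2 fold change of -0.49 (SE 0.21, edgeR adjusted p 0.561), or -0.23 without control library 1. Atp5me, which encodes subunit e at the place where ATP synthase dimers meet, had 558, 262 and 395 CPM in control and 230, 331 and 269 CPM in doxorubicin libraries. Its groups overlapped, its log2 fold change was -0.55 (SE 0.25), and without control library 1 it was -0.25. Atp5mg and Atp5md had log2 fold changes of -0.54 and -0.35, and -0.11 and 0.01 without control library 1.

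The c subunits form the rotor ring in the membrane, and their genes encode the same mature protein behind different import sequences. Atp5mc1 was at 2520, 1310 and 1551 CPM in control and at 1114, 1363 and 952 CPM in doxorubicin libraries, a log2 fold change of -0.65 (SE 0.24, edgeR adjusted p 0.477), or -0.32 without control library 1. Atp5mc2 was at 995, 539 and 618 CPM in control and at 571, 669 and 573 CPM in doxorubicin libraries, a log2 fold change of -0.25 (SE 0.22), or 0.07 without control library 1. The levels of each gene overlapped between the groups. Atp5mc3 stood on 2 rows and was listed at 0 in all 6 libraries.

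The balance between the c-subunit genes varied little among control hearts and was lower for Atp5mc1 in each doxorubicin heart. The Atp5mc1 share of their counts was 71.7%, 70.8% and 71.5% in control libraries (Wilson 95% intervals 70.8 to 72.6, 69.4 to 72.2 and 70.5 to 72.5) and 66.1%, 67.1% and 62.4% in doxorubicin libraries (64.8 to 67.4, 65.9 to 68.2 and 61.1 to 63.8). No doxorubicin interval reached a control interval. The means were 71.4% ± 0.454 and 65.2% ± 2.44 (SD, n = 3), a difference of -6.15 percentage points that was -5.98 without control library 1. An exact permutation test, 2-sided, gave p = 0.1, below which 3 against 3 libraries cannot go, and 0.4 after Benjamini-Hochberg adjustment over the 4 distinct shares. A share within a library does not depend on the scaling between libraries. Reads from the part of the coding sequence that the c-subunit genes have in common may be split or dropped by the counting, which is not given in the sources used here, so the size of the share is uncertain.

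Atp5if1 encodes the inhibitor that stops the ATP synthase from running in reverse. It was at 241, 155 and 164 CPM in control and at 249, 192 and 246 CPM in doxorubicin libraries. Control library 1 reached the level of the doxorubicin libraries, and the other controls lay below all 3. The log2 fold change was 0.29 (SE 0.21, edgeR adjusted p 0.753), and 0.52 (SE 0.17, edgeR adjusted p 0.640) without control library 1, when it was the only member with non-overlapping groups that was higher (20.5% of all genes were separated in either direction). The ratio of its counts to those of Atp5f1b was 0.0191, 0.0141 and 0.0149 in control and 0.0248, 0.0180 and 0.0285 in doxorubicin libraries, a comparison chosen after the values were seen. Doxorubicin library 2 lay between the controls in this ratio, below control library 1.

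**Figure D3:**
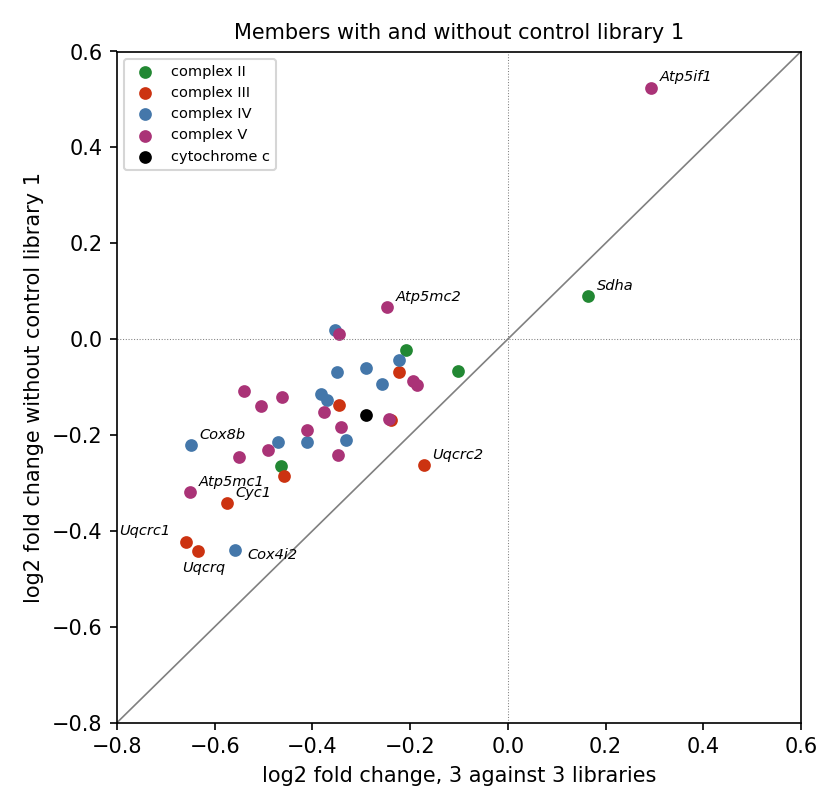
The log2 fold change, doxorubicin against control, of each of the 41 tested members from all 6 libraries (horizontal axis) and without control library 1 (vertical axis), coloured by complex. Points above the diagonal moved upward when that library was left out. Uqcrc1 goes from -0.66 to -0.42 and Uqcrq from -0.63 to -0.44, Atp5if1 from 0.29 to 0.52, and the median over the members goes from -0.35 to -0.15.

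Neighbouring gene lists put the members in context. Of 32 tested complex I genes by name, 31 were below control with a median log2 fold change of -0.42, or -0.23 without control library 1. At an unadjusted edgeR p under 0.05, 13 of these genes were lower (40.6%, against 4.11% of all genes), and 0 passed the adjusted threshold. Without control library 1, 1 of these genes was lower at that unadjusted level (against 2.65% of all genes) and 0 were higher (against 2.96%). With all 6 libraries, the smallest p-values in the list were those of Ndufs8 (log2 fold change -0.61, SE 0.21), Ndufa2 (-0.67, SE 0.25) and Ndufa6 (-0.53, SE 0.21). These genes were at -0.38, -0.25 and -0.26 without control library 1. Mean log2 CPM over the complex I list was 9.41, 8.87 and 8.98 in control and 8.67, 8.80 and 8.64 in doxorubicin libraries. The groups did not overlap, as for complex III. That list holds Ndufa4, now assigned to complex IV, which the symbol rule left out of the members and whose log2 fold change was -0.30 (SE 0.19), or -0.11 without control library 1. Assembly factors of complexes II to V and cytochrome c, which build the complexes without being part of them, were below control for 26 of 35 tested genes, with a median of -0.13, or -0.03 without control library 1. The smallest p-values there were those of the complex III factor Uqcc2 (-0.72, SE 0.28) and the complex IV factors Cmc1 (-0.91, SE 0.43) and Coa3 (-0.38, SE 0.21), which were at -0.25, -0.81 and -0.14 without control library 1. At an unadjusted edgeR p under 0.05 there were 1 of 35 lower (2.86%, against 4.11% of all genes) and 0 higher (against 4.0%).

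Mitochondrial genes outside the chain, such as porins, import receptors and citrate synthase, were below control for 17 of 19, with a median of -0.12, or -0.07 without control library 1. Cytosolic ribosomal protein genes were below control for 38 of 56, with a median of -0.07, and 0.16 without control library 1, where 53 of 56 were above control. In mean log2 CPM, control library 1 was the highest library for both ribosomal protein genes and members, at 8.59 against 7.86 to 8.22 and at 10.17 against 9.42 to 9.73. With the libraries scaled on the ribosomal protein genes, an alternative added after the data were seen, the members' median was -0.32 and 39 of 41 were below control.

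**Figure D4:**
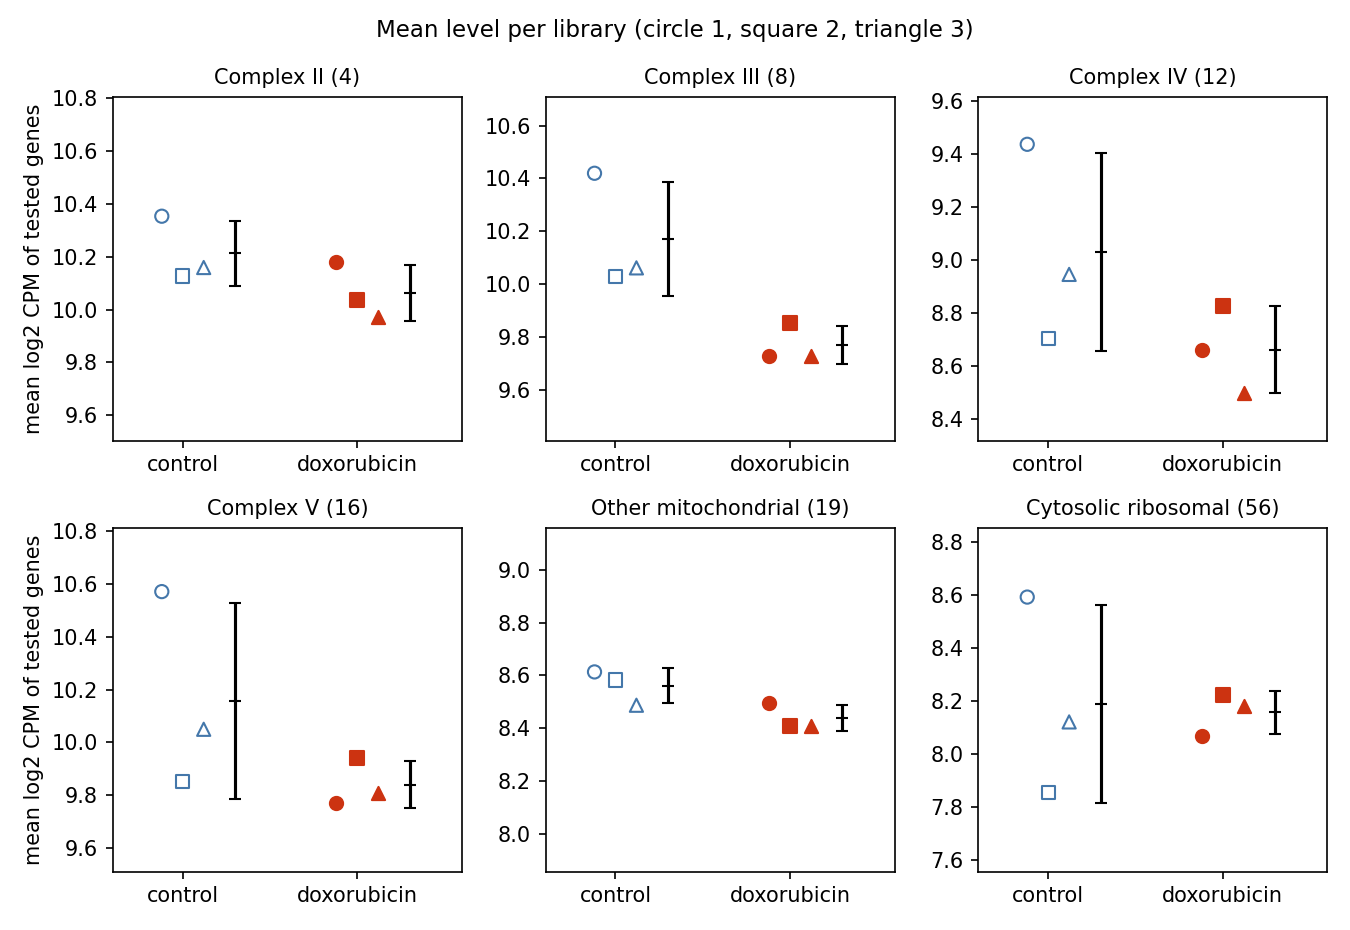
Mean log2 CPM of the tested genes of complexes II, III, IV and V, of 19 other mitochondrial protein genes and of 56 cytosolic ribosomal protein genes in each library, with control open and doxorubicin filled, and the group mean ± SD (n = 3) beside the points. All panels span the same range of 1.3 log2 units. Control and doxorubicin libraries do not overlap for complex III, at 10.03 to 10.42 and 9.73 to 9.85, and overlap in the other panels. Complex I genes, which did not overlap either, are not shown.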

How the data were processed

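The authors deposited 1 table of raw counts per annotated feature, not normalized, for the 6 libraries. The labels' protocols name Watchmaker mRNA library preparation and NovaSeq sequencing. Per the submitters' processing notes, the tools were FastQC, Trimmomatic, STAR and HTSeq and the build was mRatBN7.2. Versions, counting mode, strand setting and annotation are not given in the sources used here. The 18473 rows were summed into 17487 symbols, 599 of which stood on several rows.

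Doxorubicin was compared with control by edgeR 4.0.16 (R 4.3.3), with the quasi-likelihood F test, TMM scaling, robust dispersion and filterByExpr at a minimum count of 10 and total of 15, over 9205 symbols. P-values were adjusted by Benjamini-Hochberg over all of these, with a threshold of 0.05. CPM values are TMM-scaled, except the marker sums and shares, which use raw totals. A log2 fold change is doxorubicin against control, and its SE is its size divided by the square root of F. A count of 3 corresponds to 0.855 to 1.35 CPM. Wilson 95% intervals cover counting error only. Isoform shares were compared by exact permutation over libraries, for pairs in which each library had at least 100 counts. Replicates are separate animals, and within a group libraries differed by more than sampling noise (chi-square per degree of freedom from 4.11). The fit was tested on simulated data.

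The members and gene lists were chosen with earlier results of these data known. By rule, the members named were those of isoform pairs, those above control, and in each complex the 4 with the smallest unadjusted p and the 2 with the highest mean CPM. From the complex I and assembly factor lists the 3 genes with the smallest p each were named. Any other gene named, and the promoter motifs, were chosen after the values were seen. Promoters came from RefSeq on GRCr8, matched by symbol or synonym for 35 of the 41 tested members. Alternatives were RLE, upper-quartile and library-size scaling, no filter, a mean CPM of at least 5, DESeq2 1.42.0, voom and voom with quality weights in limma 3.58.1, the replicate number as a block, 2 treatments of repeated symbols, each library left out, and, added after the data were seen, scaling on ribosomal protein genes. Tables, permutation and figures used Python 3.11.15 (scipy 1.17.1, numpy 2.4.6, matplotlib 3.10.9, pandas 2.3.3).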

Additional observations from a re-analysis of the deposited data

How the results depend on the processing

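Over all genes, edgeR called 5 at an adjusted p under 0.05. The count was 0 with library-size scaling, with voom and with scaling on ribosomal protein genes, 1 with a mean CPM of at least 5 and with symbols on 1 row, 61 with no filter, 14 with voom and quality weights, and 75 with DESeq2. Leaving out 1 library gave 0 to 35, with 35 without doxorubicin library 2 and 0 without control library 1 or 3 or doxorubicin library 1 or 3. No member passed an adjusted p under 0.05 in any of the 18 alternatives, and the lowest adjusted p was 0.116, for Uqcrc1. Members at an unadjusted p under 0.05, 8 by edgeR (8.10% of all genes), numbered 5 with library-size scaling (7.75%) and with voom and quality weights (8.69%), 16 with DESeq2 (5.54%) and with scaling on ribosomal protein genes (4.52%), and 4 to 20 with 1 library left out (5.61% to 9.53%). The DESeq2 share includes genes with few counts, since DESeq2 was run without the filter. With the ribosomal scaling 24 members did not overlap (10.7% of all genes), and with 1 library left out 12 to 31. Leaving out control library 2 gave the 31, where 26.5% of all genes did not overlap. The low counts stand nearer their background: 12 without control library 3 (22.8%), 13 without doxorubicin library 3 (22.6%), and 14 without doxorubicin library 1 (22.1%) or control library 1 (20.6%). The members' median log2 fold change was -0.50 to -0.15 with 1 library left out. Library-size scaling put the median of all genes at 0.10 and that of the members at -0.25.

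Of the 27 tested members named by rule, 3 turned sign in at least 1 alternative. Atp5md, named beyond that rule, also turned sign, from -0.35 to 0.01 without control library 1. Without control replicate 1 the log2 fold change was 0.019 for Cox6a1 and 0.067 for Atp5mc2, and without doxorubicin replicate 1 it was -0.050 for Sdha. With 1 library left out they ranged up to 0.28 for Sdha and down to -0.51 for Cox6a1 and -0.40 for Atp5mc2. The difference in Atp5mc1 share was -7.09 to -4.77 percentage points with 1 library left out. The cause of these differences was not tested, beyond the smaller number of libraries.

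Replicate numbers gave no sign of pairing the samples. After the group mean of each gene was subtracted, same-numbered libraries had correlations of 0.02, -0.19 and -0.06, and 1 library correlated best with its own number. With so few libraries these values cannot exclude a pairing. A replicate block in edgeR gave 13 genes called, and 4 members had an unadjusted p under 0.05 with it (6.59% of all genes). A correction for protein length was not run, since no protein sequences were used here. Among the isoform shares, those of Cox4i2 and Cox6b2 rest on few counts.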
